A study of Mus musculus with 2254 samples.

Results

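The 10 genes described here encode the main chains of the basement membrane around brain vessels: Col4a1 and Col4a2 of collagen IV, Lama2, Lama4, Lama5, Lamb1, Lamb2 and Lamc1 of the laminins, Nid1 (nidogen) and Hspg2 (perlecan). They were chosen by name, and all 10 are among the 30950 genes of the deposited count table. The table holds 2254 brain cells that were sorted one per well into 6 plates and sequenced by Smart-seq2, a full-length single-cell method that counts reads rather than molecules. All cells came from adult C57BL/6 mice carrying SM22-Cre and a Rosa26-stop-tdTomato reporter, in which Cre driven by the SM22 (Tagln) promoter, active mainly in smooth muscle, switches on a red fluorescent protein. The compared groups were Notch3 KO (plates 043, 467 and 471) and WT (plates 044, 468 and 469). The labels name no animal for any cell, so each genotype counts as 1 sample, the plates are given for description, and no p-value is possible.

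Median depth per plate ran from 250834 to 358168 reads per cell, and 2252 cells passed a minimum of 50000 reads and 1000 genes. Levels are given in CPM, the usual scaling of a gene's reads by the total reads of the summed cells. Notch3 itself, the targeted gene, was checked in the smooth muscle-like cells, where KO plates 043, 467 and 471 gave 57.0, 104 and 118 CPM. The WT plates 044, 468 and 469 stood at 176, 726 and 1092 CPM. The genotypes did not overlap, but WT plate 044 lay much closer to the KO plates than to the other WT plates, and KO cells kept reads. Whether those reads fall outside the altered part of the gene is not given in the sources used here. No pair of wells held identical counts.

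Basement membranes are thin sheets of extracellular matrix on which vessel cells sit. Collagen IV chains wind into triple helices, of which the Col4a1 and Col4a2 products form the common one, and link into a network; laminins are cross-shaped trimers of 1 alpha, 1 beta and 1 gamma chain that bind receptors on the cell surface. Nidogen bridges the laminin and collagen networks, and perlecan is a heparan sulfate proteoglycan that binds both and stores growth factors. In brain vessels the mural cells (smooth muscle cells and pericytes), endothelial cells, perivascular fibroblasts and astrocyte endfeet all contribute chains, and mutations of Col4a1 or Col4a2 cause small vessel disease of the brain.

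Col4a1 and Col4a2 lie head to head on chromosome 8 (GRCm38), Col4a1 at chr8:11198423-11312826 on the minus strand and Col4a2 at chr8:11312805-11449287 on the plus strand. Their windows of 250 bases before to 50 bases after the RefSeq start (GRCm38.p6) are shown because the genes share this stretch and their products join in one trimer. Capitals mark GC boxes (GGGCGG or its complement CCGCCC) and CCAAT boxes (CCAAT or ATTGG), searched on both strands.
Col4a1, chr8:11312777-11313076, minus strand: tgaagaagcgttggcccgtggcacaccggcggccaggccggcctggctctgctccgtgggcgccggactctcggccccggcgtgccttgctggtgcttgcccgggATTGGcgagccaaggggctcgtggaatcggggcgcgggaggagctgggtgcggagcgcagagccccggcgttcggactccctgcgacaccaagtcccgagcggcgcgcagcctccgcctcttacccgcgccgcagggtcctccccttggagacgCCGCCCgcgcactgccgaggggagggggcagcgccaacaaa
Col4a2, chr8:11312555-11312854, plus strand: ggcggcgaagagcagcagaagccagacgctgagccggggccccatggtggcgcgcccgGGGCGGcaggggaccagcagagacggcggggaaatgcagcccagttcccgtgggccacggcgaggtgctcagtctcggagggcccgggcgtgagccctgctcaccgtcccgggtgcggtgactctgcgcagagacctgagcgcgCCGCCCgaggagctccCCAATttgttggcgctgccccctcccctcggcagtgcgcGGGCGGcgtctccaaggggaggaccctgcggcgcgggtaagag
The starts were 21 bases apart and the windows shared 78 bases. Col4a1 carried 1 GC box and 1 CCAAT box, and Col4a2 carried 3 GC boxes and 1 CCAAT box. The GC box of Col4a1 and the last one of Col4a2 are the same site in the shared bases, read on opposite strands. The windows of Col4a1 and Col4a2 were 74% and 73.7% G or C, against a median of 52.7% over all windows. Of all 32851 promoter windows of this length, 35.7% held a GC box and 37.4% a CCAAT box. Of the 8 members with a window in the table, 7 held a GC box (all but Lamb2), 4 held a CCAAT box and 0 held TATAAA, which 13.6% of all windows held. Lama4 and Lamc1 are named only.

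Cells were grouped by clustering without the 10 members, 61 further basement membrane genes or Notch3, and clusters were named from markers. The smooth muscle-like class held 1002 cells (605 KO, 397 WT), the pericyte-like class 179, endothelial-like 212, fibroblast-like 170, ependymal-like 200, astrocyte-like 262, microglia- or macrophage-like 54 and oligodendrocyte-like 15. A second pericyte-like cluster, number 16 (30 cells, 29 of them KO), held 0.121 CPM of the pericyte marker Atp13a5, against 623 CPM in the class, and was kept apart. The plates filled the classes unevenly, also within a genotype. WT plates 468 and 469 held 171 and 88 of the 262 astrocyte-like cells and 31 and 22 of the 54 microglia-like cells. WT plate 044 held 0 and 1 of them, and the KO plates together 3 and 0. Levels are CPM of the reads summed over the cells of a class on a plate with at least 10 such cells, and means are over plates. The microglia-like cells were taken to show the background.

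Collagen IV was a product of all 4 vascular classes. Col4a1 averaged 545 CPM in smooth muscle-like cells (SD 158, 352 to 694 over 6 plates), 454 in pericyte-like cells (SD 156, n = 5 plates), 419 in fibroblast-like cells (SD 174, n = 6 plates) and 404 in endothelial-like cells (SD 146, n = 5 plates). These 4 ranges overlapped, and every one of them lay above the ependymal-like cells at 54.6 CPM, the astrocyte-like cells at 30.4 CPM and the microglia-like cells at 6.50 CPM. Col4a2 followed the same order for smooth muscle-like (491 CPM), pericyte-like (393 CPM) and endothelial-like cells (320 CPM). It was lower in fibroblast-like cells (249 CPM), where its plates ran from 72.3 to 535 CPM. As shares of the 6 collagen IV genes by reads per kilobase of transcript, Col4a1 and Col4a2 gave 44.3% and 40.8% in smooth muscle-like cells and 35.1% and 20.3% in fibroblast-like cells. Of the Col4a1 and Col4a2 pair alone, Col4a1 was 52.0% in smooth muscle-like cells (SD 2.90, n = 6 plates) and 64.2% in fibroblast-like cells (SD 10.1, n = 6 plates). The remainder in fibroblast-like cells was mainly Col4a5 (26.2%) and Col4a6 (14.2%), which encode the chains of another collagen IV trimer. In smooth muscle-like cells Col4a5 and Col4a6 made up 9.41% and 3.16%.

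**Figure D1:**
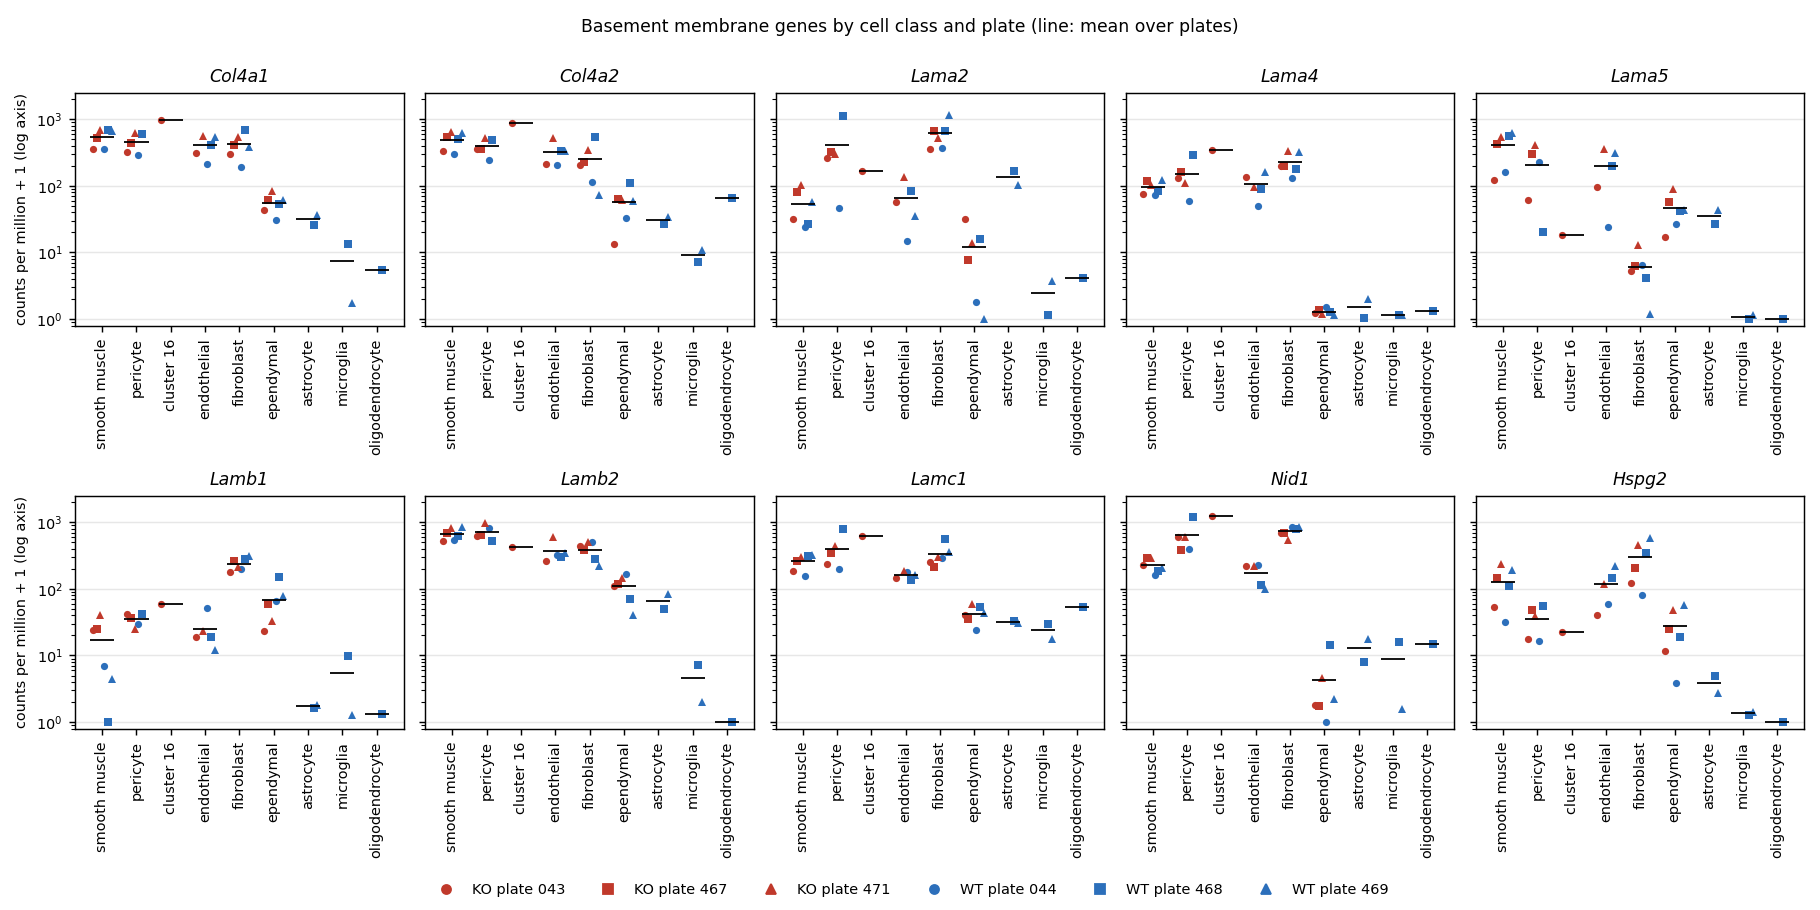
Level of each of the 10 genes (vertical log axis, CPM plus 1) in 9 classes of cells (horizontal axis), with 1 point per plate with at least 10 cells of the class, red for KO and blue for WT, and a line at the mean. Lama5 drops from 407 CPM in smooth muscle-like to 5.03 CPM in fibroblast-like cells, and Lamb1 and Lama2 have their highest means in fibroblast-like cells.

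Each laminin alpha chain had its own distribution over the classes. Lama5, the alpha chain of laminin-511 and laminin-521, was highest in smooth muscle-like cells: 123, 424 and 548 CPM on KO plates 043, 467 and 471 and 161, 563 and 620 CPM on WT plates 044, 468 and 469. Pericyte-like and endothelial-like cells averaged 205 and 198 CPM. Fibroblast-like cells held 5.03 CPM of Lama5 (0.179 to 11.9 over 6 plates), below every plate of those 3 classes. Lama2, the merosin chain that is mutated in congenital muscular dystrophy, showed the opposite: 616 CPM in fibroblast-like cells (351 to 1148) against 52.5 CPM in smooth muscle-like cells (23.1 to 101), with no overlap between these classes. Astrocyte-like cells also carried Lama2, at 103 and 166 CPM on 2 WT plates, and the next member in them, Lamb2, reached 82.0 CPM. Lama4, the alpha chain of laminin-411 and laminin-421, was spread more evenly, with means of 94.4 CPM (smooth muscle-like), 106 CPM (endothelial-like), 150 CPM (pericyte-like) and 226 CPM (fibroblast-like). It averaged 0.286 CPM in ependymal-like and 0.528 CPM in astrocyte-like cells.

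Among the beta chains, Lamb2 was the common one and Lamb1 the local one. The pericyte-like mean of Lamb2 was 720 CPM (SD 183, n = 5 plates) and the smooth muscle-like mean 673 CPM (SD 138, n = 6 plates), with overlapping plates. Fibroblast-like and endothelial-like cells averaged 385 and 365 CPM. Every smooth muscle-like plate (523 to 853 CPM) lay above every fibroblast-like plate (220 to 508 CPM). Lamb1 averaged 238 CPM in fibroblast-like cells (175 to 306), and this range lay above that of every other named class. It was 67.1 CPM in ependymal-like, 33.9 in pericyte-like, 24.1 in endothelial-like and 16.0 in smooth muscle-like cells. Lamc1, the gamma chain of most vascular laminins, averaged 399 CPM in pericyte-like cells, 327 CPM in fibroblast-like cells, 257 CPM in the smooth muscle class and 161 CPM in the endothelial class, each overlapping its neighbour in that order. Every endothelial-like plate (135 to 184 CPM) lay above the ependymal-like plates (22.8 to 57.4 CPM).

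Counted per kilobase of the longest protein-coding transcript (GENCODE M21), so that chains can be set beside each other, the alpha chains of smooth muscle-like cells were 59.2% Lama5 (SD 12.6, n = 6 plates), 31.0% Lama4 (SD 10.9) and 9.75% Lama2 (SD 3.79). Fibroblast-like cells were 54.1% Lama2 (SD 7.50, n = 6 plates), 33.8% Lama4, 11.6% Lama1 and 0.467% Lama5. Endothelial-like cells were 41.0% Lama4, 32.7% Lama5, 13.8% Lama2 and 12.4% Lama3. Lamb2 made up 97.6% of beta chains in smooth muscle-like cells and 61.0% in fibroblast-like cells, in which Lamb1 took 38.6% (SD 12.6, n = 6 plates). The gamma chains differed as well. Lamc3, a gamma chain outside the 10 genes, took 59.6% of gamma reads per kilobase in fibroblast-like cells (SD 14.8), 50.7% in pericyte-like cells (SD 8.70, n = 5 plates) and 29.0% in smooth muscle-like cells (SD 8.20). Lamc3 shares 6.27% of its exon bases with Gm13441 on the other strand, and the strand setting of the counting is not given in the sources used here.

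**Figure D2:**
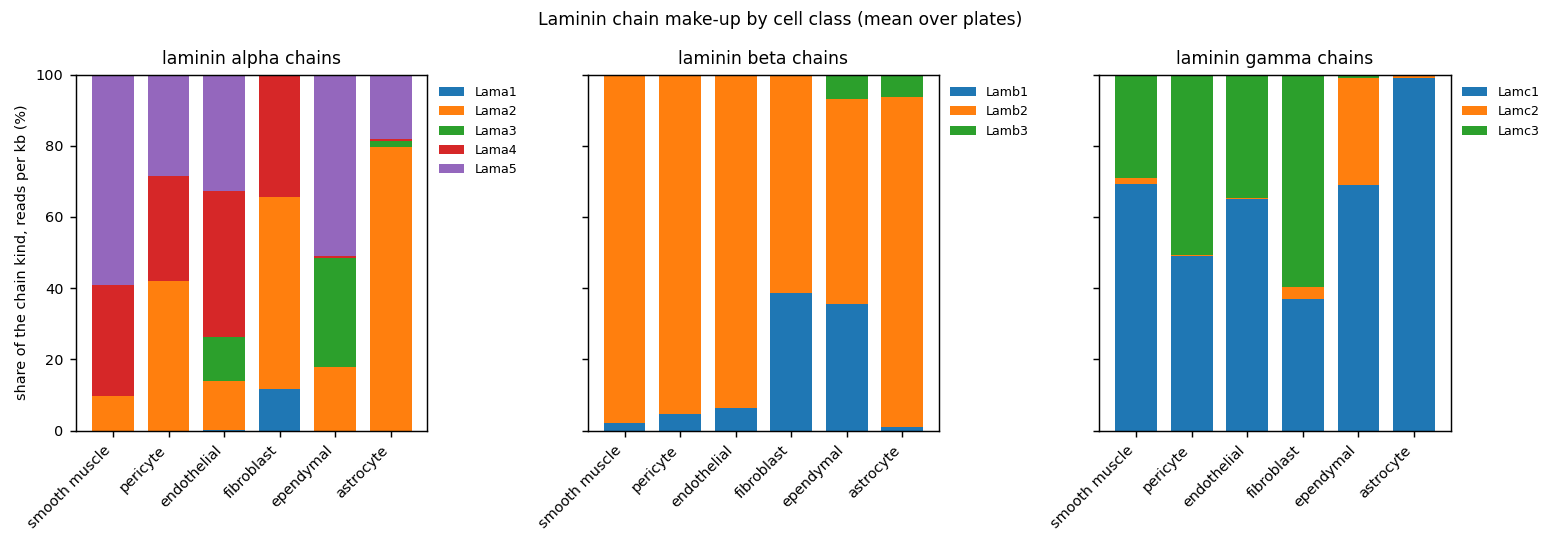
Share of each chain among the laminin alpha, beta and gamma chains (vertical axis, percent of reads per kilobase) in 6 classes, as stacked means over plates. Lama5 gives 59.2% of alpha chains in smooth muscle-like cells and 0.467% in fibroblast-like cells, Lamb2 gives 57.6% of beta chains in ependymal-like cells and more in the other classes, and Lamc3 runs from 0.305% in astrocyte-like to 59.6% in fibroblast-like cells.

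Cluster 16 aside, the linking proteins had their highest means in fibroblast-like cells. Nid1 averaged 737 CPM there (546 to 860 over 6 plates) and 635 CPM in pericyte-like cells, and every plate of both classes lay above the smooth muscle-like cells (163 to 293 CPM, mean 227). Hspg2 averaged 298 CPM in fibroblast-like cells (80.7 to 587), 127 CPM in the smooth muscle class and 115 CPM in the endothelial class, with overlapping plates, and 34.5 CPM in pericyte-like cells. Its transcript is the longest of the 10 (14187 bases). In smooth muscle-like cells the order per kilobase was Lamb2 (120 CPM per kilobase), Col4a1 (82.5), Col4a2 (76.2), Nid1 (37.2), Lama5 (35.7), Lamc1 (33.7), Lama4 (15.6), Hspg2 (8.94), Lama2 (5.46) and Lamb1 (2.76). Of these neighbours only Lamc1 (lowest plate 20.2) and Lama4 (highest plate 19.9) did not overlap.

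Markers of other mural cells were read in the vascular classes. In pericyte-like cells the 6 smooth muscle markers summed to 2469 CPM on plate 468 and to 11272 to 13711 CPM on the other 4 plates, with Myh11 at 337 to 3071 CPM, while the 8 pericyte markers summed to 10160 to 20670 CPM. Endothelial-like cells averaged 1900.2 CPM of their own marker Cldn5 but also 2373 CPM of the pericyte marker Rgs5, and the 6 smooth muscle markers summed to 188 to 5230 CPM over their plates. In fibroblast-like cells the same 6 markers summed to 244 to 1708 CPM, while Myh11 reached at most 18.0 CPM and Dcn stood at 1594 CPM or more on every plate. The part of this RNA in the levels of the members was not tested.

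Pericyte-like cells differed among themselves in the members. Of the 179 cells, 14 had Acta2 under 100 CPM (at most 11.0) and 165 had it above (at least 935), with no cell in between; this line was drawn after the distribution was seen. The 14 cells were all from WT plates (10 on 468, 4 on 469) and carried 4221 CPM of Atp13a5 and 1390 CPM of Kcnj8, both pericyte markers, against 305 and 255 CPM in the 165. In the 165, Acta2 and Myh11 were read in every cell (medians 5150 and 2579 CPM), while Kcnj8 and Atp13a5 had medians of 0 CPM. The pericyte-like levels given above describe mostly these 165 cells, except on plate 468. Lama2 had a median of 795 CPM per cell in the 14 (quartiles 367 and 1325) and 56.7 CPM in the 165 (quartiles 0 and 442). Nid1 had medians of 1322 and 381 CPM, Lamc1 of 824 and 176 CPM, and Lama4 of 313 and 0 CPM. Lama5 and Lamb2 went the other way: Lama5 was read in 21.4% of the 14 cells and 64.8% of the 165, and Lamb2 had medians of 325 and 681 CPM. By summed reads per kilobase, Lama5 was 3.30% of alpha chains in the 14 and 27.2% in the 165. Plate 468 held 10 of the 14 cells and 2 of the 165, plate 469 held 4 and 5, and the other 4 plates held none of the 14. The values compare cells that come mostly from different plates. Lama2 in the pericyte-like class ran from 45.7 to 1134 CPM over its 5 plates.

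Cluster 16, with the leading genes Chrdl1, Colec11 and Steap4, had at least 10 cells on KO plate 043 alone (20 cells). On that plate 5 members lay above the mean of every named class: Col4a1 at 985 CPM, Col4a2 at 891 CPM, Nid1 at 1235 CPM, Lamc1 at 626 CPM and Lama4 at 342 CPM. Lama4 made up 74.8% of its alpha chains and Lama5 2.01%. It carried the fibroblast marker Dcn at 462 CPM beside Kcnj8 at 1401 CPM over all its cells.

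Smooth muscle-like cells formed 6 clusters, ordered here by Cnn1 (calponin, a contractile protein): cluster 9 (leading genes Actg2, Cnn1 and Fam129a; mean Cnn1 1153 CPM), cluster 7 (Nxnl2, Cnn1, Plin4; 693 CPM), cluster 11 (Gm3604, Synpo2l, Tgfb3; 437 CPM), cluster 2 (Fosl2, Nr4a2, Txndc11; 294 CPM), cluster 3 (Olfr558, Cysltr2, Olfml2a; 80.3 CPM) and cluster 10 (Tmem255b, Col14a1; 16.3 CPM). A gene was called between 2 clusters where the difference was at least 2-fold in the same direction on every plate with 10 or more cells of both, with a mean of at least 10 CPM in either. Over the 15 pairs of clusters, 1 of the 10 members was called in any pair, beside 16.4% of 11804 genes. That member was Lama2. In cluster 9 it stood at 16.6, 0.329 and 73.5 CPM on KO plates 043, 467 and 471 and at 6.42 CPM on WT plate 044. In cluster 10 the same plates gave 46.2, 105, 239 and 32.6 CPM. The cluster ranges overlapped, but on each plate cluster 9 was the lower. The log2 difference of cluster 9 from cluster 10 was -2.90 (plates from -6.31 to -1.43, n = 4 plates), in a pair where 3% of genes were called. From cluster 11 it was -1.65 (plates from -2.65 to -1.01, n = 3 plates), again beside 3% of genes.

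No other member was called. Lamb1 differed by a log2 of 1.85 between clusters 3 and 7, but its plates disagreed (from -0.15 to 3.12, n = 4 plates). Lamb2 was lower in cluster 9 than in cluster 10 on all 4 shared plates, at 458 against 847 CPM, a log2 difference of -0.91 (plates from -1.21 to -0.24) that was not 2-fold on each. On their 4 shared plates Nid1 averaged 143 CPM in cluster 9 and 342 CPM in cluster 3 (log2 1.22 for cluster 3 minus cluster 9, plates from 0.87 to 1.60). As means over plates, Lama5 made up 47.5% to 65.2% of alpha chains in all 6 clusters, and Lamb2 at least 96.1% of beta chains. The gamma chain Lamc3, outside the 10 genes, was called in 9 of the 15 pairs. It averaged 5.40 CPM in cluster 9, 43.8 in cluster 7, 22.7 in cluster 11, 79.4 in cluster 2, 110 in cluster 3 and 211 CPM in cluster 10. Its share of gamma chains went from 1.92% in cluster 9 to 50.6% in cluster 10. Col4a3, also outside the list, was called in 4 of 15 pairs. These clusters were formed without any of these genes.

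**Figure D3:**
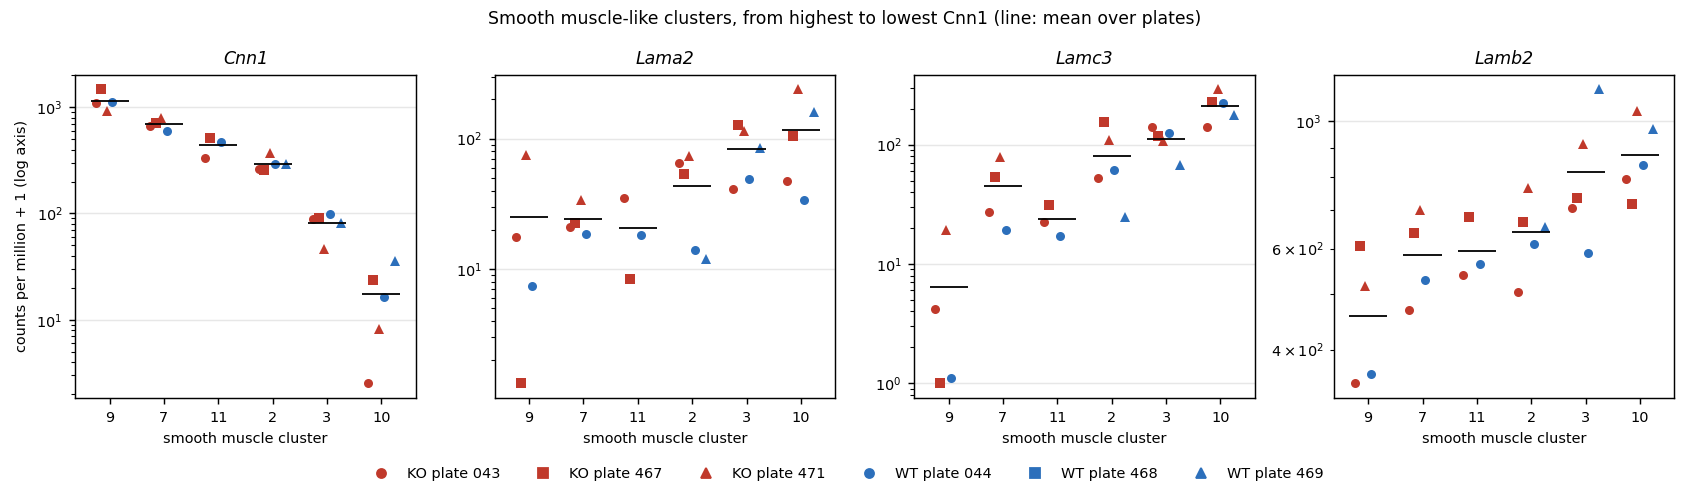
Cnn1, Lama2, Lamc3 and Lamb2 in the 6 smooth muscle-like clusters, ordered from highest to lowest Cnn1 (horizontal axis); vertical log axes give CPM plus 1, with 1 point per plate with at least 10 cells and a line at the mean. Lamc3 stands at 0 to 18.3 CPM in cluster 9 and at 139 to 290 CPM in cluster 10.

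The study set Notch3 KO against WT. In smooth muscle-like cells Lamb1 was the member that differed: 22.8, 23.9 and 39.8 CPM on KO plates 043, 467 and 471 against 6.00, 0 and 3.36 CPM on WT plates 044, 468 and 469. All 3 KO plates were higher than all 3 WT plates. The log2 difference (KO minus WT of the mean log2(CPM + 1) over plates, which understates folds of low genes) was 3.21 (SD over plates 0.43 in KO and 1.46 in WT). Summed over plates, KO had 31.0 CPM (exact Poisson 95% interval 30.2 to 31.8) and WT 5.13 CPM (4.72 to 5.56), intervals that cover counting error of reads only. Lamb1 was the 1 of 10 members that met a rule of size: a mean of at least 10 CPM and a read in 10% of cells in either genotype, at least 2-fold, and no overlap of plates. By this rule 3.05% of 9580 genes were called in either direction, 2.31% higher and 0.741% lower in KO. Lamb1 passed the parts on level and share of cells through KO alone, the group where it was high.

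Few cells carried Lamb1. A read was found in 26 of 190, 19 of 175 and 42 of 240 KO cells (13.7%, 10.9% and 17.5%; exact binomial 95% intervals 9.14 to 19.4, 6.66 to 16.4 and 12.9 to 22.9). In WT it was found in 18 of 314, 0 of 28 and 7 of 55 cells (5.73%, 0% and 12.7%), with intervals of 3.43 to 8.91 for plate 044 and 5.27 to 24.5 for plate 469. The 0 of 28 cells on plate 468 allows a share of up to 12.3% by the exact interval and 10.7% by a limit of 3 counts (3 of 28). The interval of WT plate 469 covered all 3 KO shares. With cells thinned to 50000 reads, the KO shares were 9.47%, 10.3% and 12.1% and the WT shares 3.50%, 0% and 3.64%, while microglia-like cells, the background, gave 3.23% and 0%. That background rests on 31 and 22 cells of WT plates 468 and 469, with none from a KO plate. Its shares without thinning were 6.45% (0.791 to 21.4) and 9.09% (1.12 to 29.2). Both intervals covered all 3 KO shares, so the shares cannot place either genotype against the background. In CPM the microglia-like plates reached 8.78, above every WT and below every KO smooth muscle-like plate. A single cell held 41.3% and 63.8% of the Lamb1 reads on WT plates 044 and 469; without the top cell of each plate the levels were 18.4, 20.3 and 36.3 CPM in KO and 3.53, 0 and 1.24 CPM in WT, a check added after seeing the data. In 5 of the 6 clusters the KO mean was higher, with log2 differences from -0.91 in cluster 7 to 3.58 in cluster 10. Weighting the clusters equally gave a log2 difference of 1.57 and no call. In clusters 7, 9 and 11 the only WT plate with enough cells was 044, so there plate 044 and genotype cannot be told apart. Between plates 043 and 044 alone it was 1.77, and on the other 4 plates 3.93. Lamb1 was highest in fibroblast-like cells, and the 7 fibroblast markers summed to 306 to 359 CPM in KO and 219 to 272 CPM in WT smooth muscle-like cells, with Dcn at 1.45 to 3.98 and 0.877 to 7.35 CPM. Without the tenth of smooth muscle-like cells with the most fibroblast marker reads, the Lamb1 difference was 2.96, also a check added after seeing the data. The pericyte marker Kcnj8 stood at 27.9 to 55.4 CPM in KO and 0.258 to 17.5 CPM in WT smooth muscle-like cells, without overlap, and the 8 pericyte markers, all read on every plate, summed to 2646 to 3952 and 2225 to 3248 CPM. Lamb1, Nid1 and Lama2 all had higher means in pericyte-like than in smooth muscle-like cells, and the part of pericyte RNA in their differences was not tested.

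Nid1 was the only other member whose plates did not overlap (10.5% of genes): 227, 288 and 293 CPM in KO against 163, 182 and 207 CPM in WT, a log2 difference of 0.54 that did not reach 2-fold. Lama2 stood at 31.0, 78.5 and 101 CPM in KO and 23.1, 25.9 and 55.5 CPM in WT. Its log2 difference was 0.94, with overlapping plates. On plates 467, 468, 469 and 471 alone, where KO and WT did not overlap, it was 1.21 and met the rule. It also met the rule without KO plate 043 (1.44) or without WT plate 469 (1.33). With 1 plate left out, 356 to 985 genes were called, against 292 with all plates, and 207 to 1004 over all 22 alternatives. The other 7 members differed by -0.33 (Lama5) to 0.47 (Hspg2) with plates overlapping in each. Leaving out 1 plate turned the sign of both: Lama5 ran from -0.95 to 0.33 and Hspg2 from -0.25 to 1.07. Col4a1, for example, stood at 352, 526 and 694 CPM in KO and 362, 685 and 654 CPM in WT, and Lamb2 at 523, 693 and 812 CPM in KO and 541, 619 and 853 CPM in WT. The median over the 10 members was 0.10, and over all genes measured 0.05. Leaving out 1 plate at a time moved the members' median between -0.17 and 0.35.

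**Figure D4:**
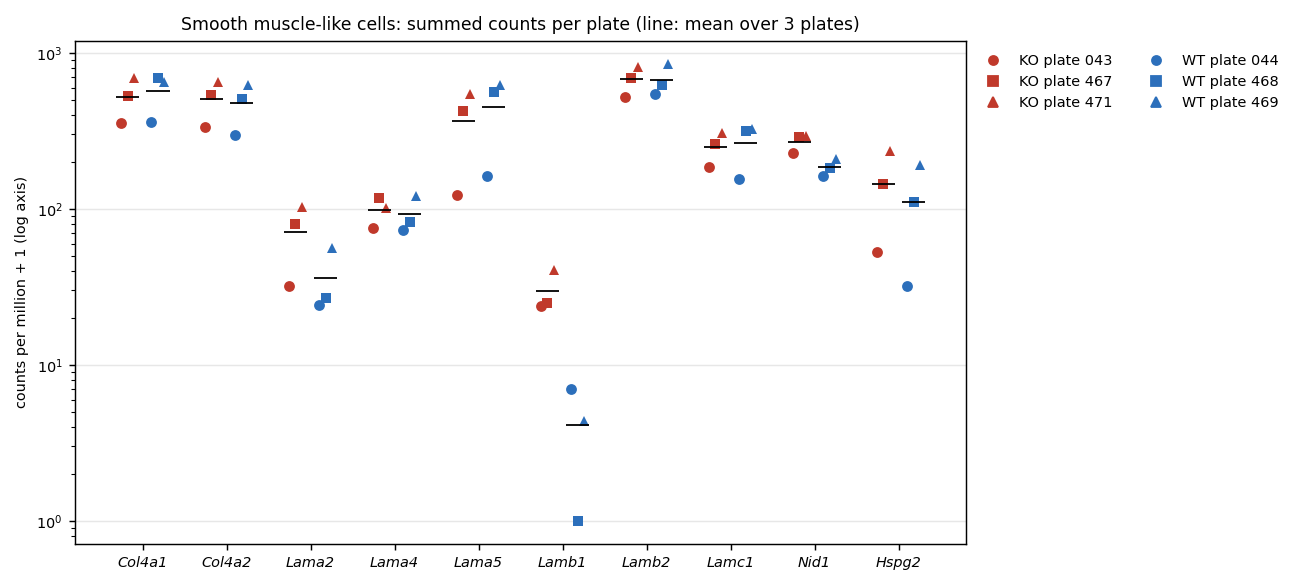
Level of the 10 genes (horizontal axis) in smooth muscle-like cells of each plate (vertical log axis, CPM plus 1), red for KO and blue for WT, with a line at the mean of 3 plates. Lamb1 (22.8 to 39.8 CPM in KO, 0 to 6.00 in WT) and Nid1 (227 to 293 and 163 to 207) are the genes without overlap.

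Of 61 further basement membrane genes listed in 4 kinds, 44 were measured in smooth muscle-like cells, 4 met the size rule as higher in KO and 0 as lower, beside 2.31% and 0.741% of all genes, 1 in each kind; their median difference was 0.14. Among matrix genes (12 measured of 21) it was Col4a3, a chain of a collagen IV trimer typical of kidney, at 40.9, 28.3 and 33.1 CPM in KO and 26.8, 19.6 and 3.90 CPM in WT (log2 1.30). On WT plate 469 only 2 of 55 cells carried Col4a3, and 1 cell held 98.8% of its reads. It was read in 17.9% of cells on WT plate 468, against 11.6%, 12.6% and 12.9% on the KO plates. Its log2 difference was above 0 in 4 of the 6 clusters (-2.43 to 4.60). Among receptors (11 of 14) it was Itga5, the fibronectin receptor chain (log2 1.73), which had 0 CPM on WT plate 468 and 14.7 and 16.5 CPM on the others, close to KO at 18.9, 24.4 and 18.9. Among genes of folding and crosslinking (14 of 16) it was Loxl2, a lysyl oxidase that crosslinks collagen IV: 19.8, 11.7 and 9.42 CPM in KO against 2.52, 0.258 and 0.292 CPM in WT (log2 2.97). WT plates 468 and 469 held 2 and 6 Loxl2 reads. Among turnover genes (7 of 10) it was Adamts4, a protease, at 13.1, 12.1 and 105 CPM in KO and 7.75, 0.258 and 3.70 CPM in WT (log2 2.86). It is among the 10 leading genes of cluster 2, which had 136 of its 229 cells on plate 471; without cluster 2, an alternative added after seeing the data, the Adamts4 difference was 2.88. Without KO plate 471 it was 1.86, and between plates 043 and 044 alone 0.69. On WT plate 469, 1 cell held 94.7% of the Adamts4 reads. Loxl2 met the rule under all 22 alternative settings run, Lamb1 under 21, Adamts4 under 20, Col4a3 under 15 and Itga5 under 11. In the main setting each of these genes reached a read in 10% of cells in KO only. The alternatives reuse the same data and are no independent support.

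The abundant genes of these kinds did not meet the rule. Sparc, a collagen-binding protein, stood at 1362 CPM in KO and 1066 CPM in WT (log2 0.37), Tinagl1 at 1192 and 1265 CPM (-0.08) and Col18a1, the source of endostatin, at 318 and 262 CPM (0.25). Of the receptors, Itgb1 gave 0.15, Bcam, which binds Lama5 chains, 0.30, and Sdc2 -0.27. Of the folding genes, P4hb gave -0.05, Lox 0.04 and P4ha2 -0.30. Of the turnover genes, Timp3 gave -0.39, Adamts1 0.66 and Timp2 0.07.

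In the other classes almost no member met the rule. In fibroblast-like cells (131 KO and 39 WT cells) 0 of 9 measured members were called, beside 6.83% of genes. Lama5 was too low to be measured. Nid1 did not overlap there (10.7% of genes) and was lower in KO, at 693, 686 and 546 CPM against 860, 778 and 860 CPM (log2 -0.38), the reverse of its direction in smooth muscle-like cells; the difference between the classes was not tested. The 2 clusters of the endothelial-like class were filled differently by the plates. Cluster 8 (leading genes Slc38a5, Slco1a4 and Emcn) had 12 KO and 156 WT cells, and cluster 14 (Gkn3, Bmx and Ssu2) had 28 KO and 16 WT cells. KO plates 043, 467 and 471 held 9, 2 and 1 cells of cluster 8 and 5, 7 and 16 of cluster 14. WT plates 044, 468 and 469 held 3, 50 and 103 cells of cluster 8 and 10, 3 and 3 of cluster 14. In endothelial-like cells (31 KO cells on plates 043 and 471, 172 WT cells on 3 plates) 0 of 10 were called, beside 11.8%, and Hspg2 and Lama2 differed by -0.83 and 1.32 with overlapping plates. The 6 smooth muscle markers summed to 2861 and 5230 CPM in KO and 188 to 2654 CPM in WT endothelial-like cells, without overlap. The part of either in the result was not tested. In pericyte-like cells (133 KO cells on 3 plates, 37 WT cells on plates 044 and 468) 0 of 10 were called, beside 16.1%. Of the 12 WT cells on plate 468, 10 were the cells low in Acta2, which no KO plate held. In ependymal-like cells 1 of 8 measured members was called, beside 6.73% of genes called in either direction and 1.67% lower: Lamb1 was lower in KO, at 22.6, 58.0 and 31.6 CPM against 64.2, 148 and 78.2 CPM (log2 -1.36).

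Plates also differed within both genotypes. In smooth muscle-like cells Lama5 stood at 123 and 161 CPM on plates 043 and 044 and at 424 to 620 CPM on the other 4. Hspg2 stood at 52.3 and 31.1 CPM on plates 043 and 044 and at 110 to 235 CPM on the others. Of the 10 members, 9 were higher on plates 467, 468, 469 and 471, 7 without overlap (32.6% of genes), and 2 (Lama5, log2 1.92, and Hspg2, log2 1.99) met the size rule, beside 7.66% of 9655 genes called higher on these 4 plates and 10.4% in either direction. The members' median was 0.83 and that of all genes -0.02. The same difference rose with transcript length over 8736 genes of known length (Spearman 0.23 across genes, a description): the median was -0.24 for genes of 2 to 3 kb, 0.15 for 5 to 6 kb, 0.42 for 6 to 8 kb and 0.73 for genes over 8 kb. All 10 members have transcripts of 5629 bases or more. Of genes of 5 to 6 kb 11.5% were called higher on these 4 plates, and of genes of 6 to 8 kb 18.6%. Over 8 kb, the group that holds Lama5 and Hspg2, it was 29.6%, so the share over all genes is a low mark for the members. In smooth muscle-like cells 1 of 3 KO plates and 1 of 3 WT plates lie on the low side. Whether the plate difference has the same size in both genotypes was not tested. The balance is lost in endothelial-like cells (2 KO and 3 WT plates) and pericyte-like cells (3 KO and 2 WT plates). Pooling cells in place of plates weights the plates unequally, since 314 of 397 WT smooth muscle-like cells were on plate 044. Reads of Hspg2 summed over cells gave 159 CPM for KO against 64.6 for WT, where the plate means gave 144 against 110.

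**Figure D5:**
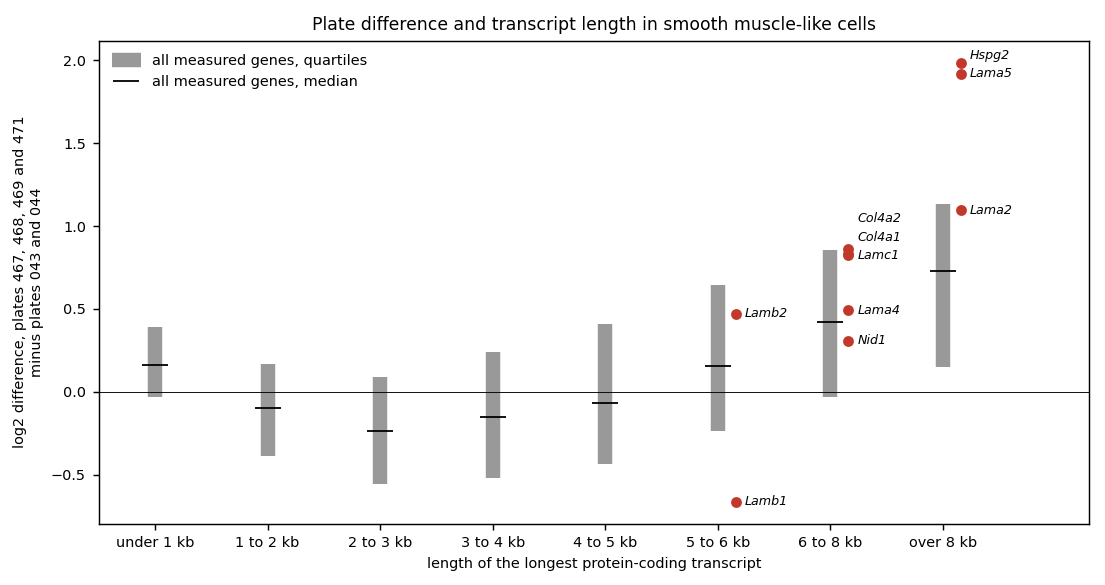
Log2 difference of plates 467, 468, 469 and 471 from plates 043 and 044 in smooth muscle-like cells (vertical axis) for genes grouped by transcript length (horizontal axis); grey bars span the quartiles of all measured genes, black marks their median and red points the 10 members. Medians run from -0.24 at 2 to 3 kb to 0.73 over 8 kb. Hspg2, Lama5 and Col4a2 lie above the quartiles of their group and Lamb1 lies below.

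Across 34 class-by-plate sums, which share plates and depth, the genes most like each member were named from 15601 genes by Pearson r of log2(CPM + 1), as a description. Col4a1 was most like Pear1 (0.94), Lamb2 (0.92) and Nr2f2 (0.90), and Col4a2 was most like Tns2 (0.91), Col4a1 (0.89) and Ebf1 (0.89). Lama4 followed Foxc1 (0.97), a transcription factor gene, Lamc3 (0.96) and Akap12 (0.96), and Nid1 followed Lamc3 (0.95), Lama4 (0.94) and Il34 (0.94). Lamc1 followed Lamc3 (0.94), Gpc3 (0.94) and Nid1 (0.94). Lama5 was most like Sorbs2 (0.94), Sorbs2os (0.88) and 2900026A02Rik (0.85), Lamb2 like Ptrf (0.94), Ecm2 (0.92) and Col4a1 (0.92), and Hspg2 like Pear1 (0.85), Gm20721 (0.85) and Tgfbr3 (0.84). The matches of Lama2 and Lamb1 were Oaf (0.89), Gpr153 (0.83) and Rgs16 (0.83) for Lama2, and Rcn1 (0.82), Lrrc17 (0.81) and Angptl2 (0.79) for Lamb1. Among single smooth muscle-like cells of a plate, Col4a1 and Col4a2 had the highest median Spearman correlation of the 45 pairs of members, 0.28 over the 6 plates (0.19 to 0.46). On plate 043 it was the highest pair, and on each of the other 5 plates another pair was higher.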

How the data were processed

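Single cells of 6 plates were measured by Smart-seq2. The authors deposited whole-number read counts per gene; the submitters' processing notes name TopHat2 2.1.1, SAMtools 0.1.18 and featureCounts (Subread 1.4.6-p5) with GRCm38 (mm10), and the annotation version and strand setting are not given in the sources used here. Cells with at least 50000 reads and 1000 genes were kept (2252). Clustering used scanpy 1.11.5 with 2000 variable genes, 30 components, 20 neighbours and Leiden (leidenalg 0.10.2, resolution 1). A cluster took the name of the marker list with the highest scaled level, if at least 0.7 (set after the tables were seen) with 3 markers in 25% of cells; other clusters stayed unnamed. Doublets were not called; 126 cells with markers of a second class were left out as an alternative. Counts were summed per class and plate and scaled to CPM. KO and WT were compared by the size rule, with no count model and no p-value, since animals are not labelled; TMM factors (edgeR 4.0.16) were an alternative. The rules recovered large known differences in simulated plate sums. These had a small fixed spread between plates and a read in every cell, so they do not show how the rules do on these data. Lengths are from GENCODE M21 and promoters from RefSeq. Named genes were all members, further list genes that met the rule or were the 3 highest of a kind, the 3 most alike per member, and up to 3 leading genes per cluster; 1 leading gene is not reported here. Members and lists were chosen with earlier results of these data known.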

Additional observations from a re-analysis of the deposited data

Results flagged for a closer look

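Members were read above the highest plate of microglia-like cells (given in brackets) in 4 clusters that no comparison uses. Unnamed cluster 13 (52 WT cells; leading genes Frzb, Aqp1 and Prss56) held Nid1 at 298 CPM (15.1 in microglia-like cells), Lama4 at 181 CPM and Lamc1 at 152 CPM, while Lama5 was 0.216 CPM. Unnamed cluster 15 (14 cells on 1 plate; relative median depth 0.305) held Col4a1 at 658 CPM (12.3) and Lamb1 at 159 CPM. Unnamed cluster 17 (11 cells; Gpr50) held Lamb2 at 90.1 CPM (6.21). Unnamed cluster 18 (12 cells; Slc47a1, Cyp2f2) held Nid1 at 434 CPM (15.1), Lamb2 at 270 CPM and Lama2 at 229 CPM, with Col4a1 at 4.24 CPM.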

How the results depend on the processing

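No paired analysis was possible because the labels give no replicate numbers and the results come from no test. In smooth muscle-like cells the differences of Lamb1, Col4a3, Itga5, Loxl2 and Adamts4 kept their sign under all 22 alternatives. Fibroblast-like and endothelial-like cells had no called member that could reverse, and between smooth muscle clusters only counts of calls were compared. The ependymal-like and plate comparisons were not rerun. Lamb1 in smooth muscle-like cells kept its call under 21 of 22 alternatives, which reuse the same data, with differences from 1.57 to 4.45. The count of members called there was 2 with cells gated on 5 markers and on plates 467, 468, 469 and 471 alone (Lama2 added). It was 1 to 2 with 1 plate left out, and 1 with clusters weighted equally, where it was Hspg2 in place of Lamb1. All genes called there ran from 207 to 1004 over the 22 alternatives. Hspg2 differed most in clusters 7, 9 and 11 (log2 2.43, 2.09 and 1.89), whose only WT plate was 044. In endothelial-like cells the count of members was 0 to 2 with 1 plate left out (all genes 1252 to 2908), 4 on plates 043 and 044 alone (4006 of 10142 genes), 2 on the other 4 plates (3459 of 11033 genes) and 1 without cells of a second class. In fibroblast-like cells it was 1 under the gate and 0 to 1 with 1 plate left out (all genes 1026 to 2215). All genes called in fibroblast-like cells ran from 677 to 2754 over 21 alternatives. The further list had 2 calls under TMM factors, 1 with clusters weighted equally and 3 to 7 with 1 plate left out (all genes 356 to 985). Between smooth muscle clusters 1 to 2 members were called with 1 plate left out (all genes 1937 to 4696). The class with the highest level was kept by 5 of 10 members at resolution 0.5, where the only pericyte-like cluster was the 30 cells of cluster 16 and a cluster of 446 cells led by Lin7a, a leading gene of the pericyte-like cells here, had no name. All genes called in smooth muscle-like cells were 292, with 356 to 985 when 1 plate was left out (985 without WT plate 044, 506 without KO plate 043, 461 without WT plate 469) and 800 with no filter on low values. The 3 further alternatives (cells or a cluster left out) were chosen after seeing the data. The mean share of Lama5 among smooth muscle alpha chains was 54.0% to 64.3% over the alternatives. Single plates differed more, from 40.9% on KO plate 043, where Lama4 took 46.8%, to 75.4% on WT plate 468. WT fibroblast-like cells (39) and KO endothelial-like cells (31) limit those comparisons.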
